A study of Arabidopsis thaliana with 9 samples.

Results

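The BRI1 line was set against the arrays labelled 35S::AVP1, 3 arrays against 3, in the shoots of Arabidopsis thaliana seedlings. These 6 arrays were chosen by their titles out of 9, and all 20777 loci of the deposited table entered the comparison. Both lines are labelled as carrying a transgene in the Col-0 background. The BRI1 line has pBRI1::BRI1 as its genotype but 35S::BRI1 as its source name, so which promoter drives the added gene is not settled. The other line is labelled 35S::AVP1, with AVP1 behind the cauliflower mosaic virus 35S promoter. Wild type Col-0, with 3 arrays, is given beside them as the background that the labels give both lines. Growth was the same for every genotype, in vitro on MS medium at a temperature of 22 °C, with light for 16 h and dark for 8 h a day. The vegetative part was taken at stage 1.03. Biological repeats stand behind the 3 arrays of each genotype, and the sources do not say how many plants each pooled or how many independent transformants stand behind a line. A line with GRF5 that the series' design names was not analysed here.

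BRI1 is the receptor kinase at the cell surface that binds brassinosteroids, steroid hormones that promote cell expansion and division in leaves. Bound receptor switches off the kinase BIN2 and so releases transcription factors of the BES1 and BZR1 family, which repress genes of brassinosteroid synthesis and induce genes of wall loosening. AVP1 is the proton-pumping pyrophosphatase of the vacuole, which uses pyrophosphate to acidify that compartment.

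The values are log2 levels, so a difference of 1 is a doubling. Differences are the BRI1 line minus the arrays labelled 35S::AVP1, and a locus is said to be called where limma's Benjamini-Hochberg adjusted p over all loci was under 0.05. A level holds for its own locus and is not set against that of another, since probes differ in brightness. Array medians ran from 6.35 to 6.42, and the lowest 10% of values on an array lay under 3.71 to 3.79. Pearson's r between arrays over all loci was 0.994 to 0.997 within the BRI1 line, 0.995 to 0.996 within the arrays labelled 35S::AVP1, and 0.984 to 0.987 between the lines. The 14 measured photosynthesis genes had array means between 13.92 and 13.95 in the BRI1 line and between 13.93 and 13.94 in the arrays labelled 35S::AVP1. The highest value on any array was 14.57, and whether differences register at levels so near it was not tested. The 9 root markers averaged between 6.08 and 6.20 in the BRI1 line, 6.25 to 6.36 in the arrays labelled 35S::AVP1 and 6.03 to 6.04 in wild type, so the arrays labelled 35S::AVP1 lay above both others. The part of that shift in the results was not tested. In whole shoots, fewer cells of a type and less RNA per cell cannot be told apart.

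The gene named by the first label was high where the label puts it. BRI1 had levels of 12.18, 12.34 and 12.33 in the BRI1 line, against 9.72, 9.87 and 9.66 in the arrays labelled 35S::AVP1 and 9.55, 9.58 and 9.51 in wild type. The difference between the lines was 2.53 (SE 0.08), or 5.79-fold (limma adjusted p = 1.74e-08; two-sided exact permutation p = 0.1, the smallest that 3 against 3 allows). AVP1 had 12.51, 12.67 and 12.50 in the BRI1 line, against 12.49, 12.55 and 12.57 in the arrays labelled 35S::AVP1 and 12.58, 12.59 and 12.71 in wild type. The lines overlapped, while every array labelled 35S::AVP1 lay just below every wild type array. The difference between the lines was 0.02 (SE 0.07; limma adjusted p = 0.919; two-sided exact permutation p = 0.8). AVP1 was therefore not higher in the arrays that carry its name, and they are called by their label throughout. Whether the deposited AVP1 value can register the transgene was not tested.

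The lines differed at 2144 of 20777 loci (10.3%), of which 841 (4.05%) were higher and 1303 (6.27%) lower in the BRI1 line. The split depended on the scaling. Over all loci the median difference was -0.05, and 39.2% of the called loci were higher. After quantile normalization, with a median of -0.01, 1044 were higher and 950 lower (52.4% higher). After median centring 1069 were higher and 825 lower (56.4% higher). Large differences leaned the other way from the deposited split. At least 2-fold, 198 loci were higher and 125 lower. At least 8-fold, 27 were higher and 6 lower, and at least 16-fold, 8 were higher and 2 lower. The median difference was 0.61 among loci called higher and -0.45 among those called lower. The 3 arrays of one line lay wholly above or below the 3 of the other at 6303 loci (30.3%), including all 2144 called ones. With 1 array left out the count ran from 1298, without BRI1 line replicate 3, to 2419, without wild type replicate 1, and 1113 calls (51.9%) were made in all 9 such fits.

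**Figure D1:**
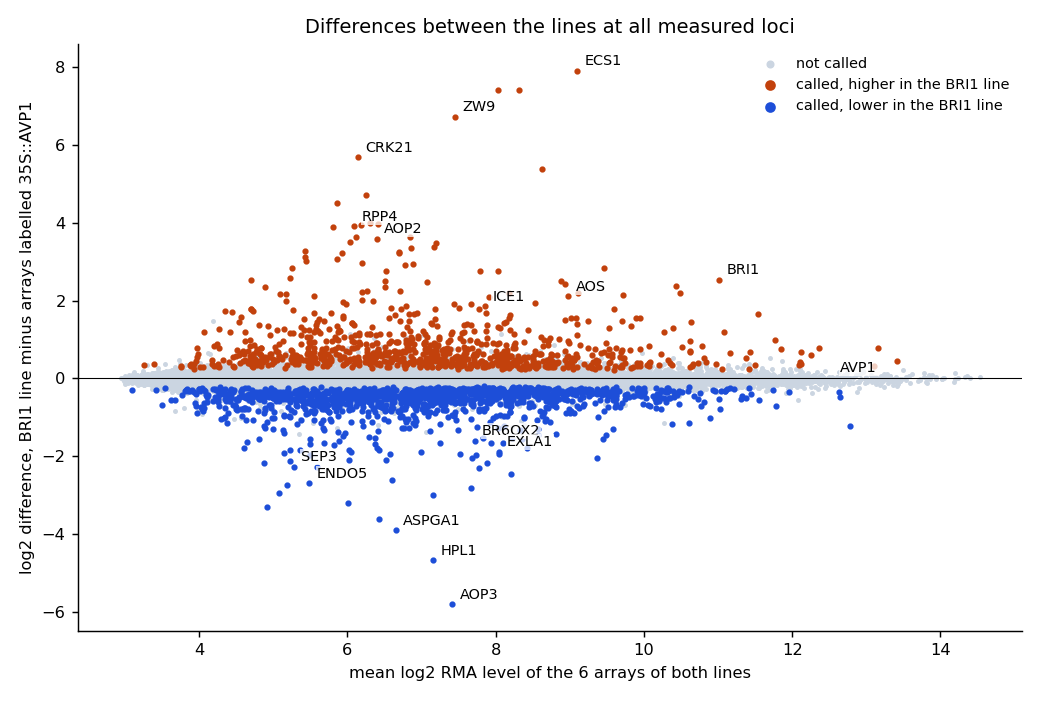
Each point is 1 of the 20777 loci. The x axis is its mean log2 level over the 6 arrays of both lines and the y axis the log2 difference, BRI1 line minus arrays labelled 35S::AVP1; orange loci were called higher and blue loci lower in the BRI1 line, grey ones were not called. BRI1 lies at 2.53 and AVP1 at 0.02, while ECS1, at 7.91, and AOP3, at -5.81, mark the extremes.

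Wild type showed which line stood apart at a called locus. Its position was set to 0 at the mean of the arrays labelled 35S::AVP1 and to 1 at the mean of the BRI1 line. At 1669 called loci (77.8%), 711 higher and 958 lower in the BRI1 line, wild type lay nearer the BRI1 line (above 0.75). At 56 loci (2.61%), 26 higher and 30 lower, it lay nearer the arrays labelled 35S::AVP1 (below 0.25). At the remaining 419 (19.5%) it lay in the middle, and the median position was 0.96. At most called loci the arrays labelled 35S::AVP1 thus stood further from wild type than the BRI1 line did. The BRI1 line was not always at the wild type level there, since positions above 0.75 have no upper limit. Positions below 0.25 have no lower limit either, and at DWF4 (position -0.975) both lines lay below every wild type array. Of the 56 loci with wild type nearer the arrays labelled 35S::AVP1, 16 are named in this report. The named ones do not stand for all 56. Wild type lay between the means of the lines at 1252 called loci. At GASA1, with a position of 1.94, it lay beyond the BRI1 line. Of the 2144 called loci, 47 had the BRI1 line above and the arrays labelled 35S::AVP1 below every wild type array. At 119 the order was reversed. The step from wild type could be small for one line, as for the BRI1 line at AT2G25450 (position 0.985). The same count was not made over all loci. No test was made on these positions.

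**Figure D2:**
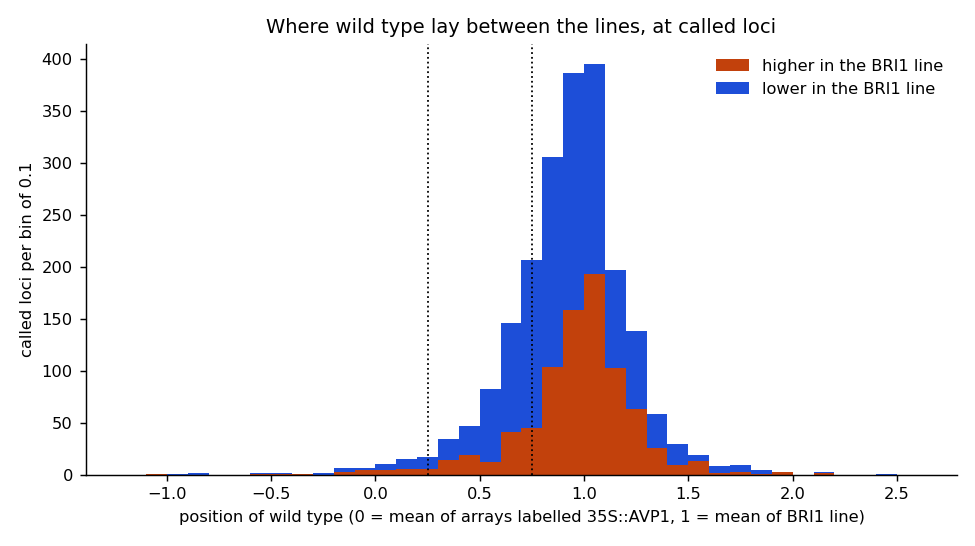
The histogram counts called loci by the position of the wild type mean, in bins of 0.1, where 0 is the mean of the arrays labelled 35S::AVP1 and 1 the mean of the BRI1 line. Orange is higher and blue lower in the BRI1 line, dotted lines stand at 0.25 and 0.75, and the bulk of loci lies around 1, with a median of 0.96.

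The locus with the greatest difference, ECS1, which encodes a cell wall protein, was close to its wild type level in the BRI1 line. Its levels were 12.96, 13.01 and 13.19 in the BRI1 line, against 4.84, 5.32 and 5.27 in the arrays labelled 35S::AVP1 and 12.99, 12.97 and 12.69 in wild type. The difference was 7.91 (SE 0.13; limma adjusted p = 4.02e-10). No array of one line came near those of the other. ZW9 had 10.77, 10.90 and 10.77 in the BRI1 line, against 3.96, 4.13 and 4.17 in the arrays labelled 35S::AVP1, a difference of 6.72. CRK21, a cysteine-rich receptor-like kinase, had 9.16, 8.89 and 8.90 in the BRI1 line, against 3.22, 3.35 and 3.33 in the arrays labelled 35S::AVP1, a difference of 5.69. The CRK21 levels in the arrays labelled 35S::AVP1 are among the lowest 10% of values on those arrays, which holds for neither ECS1 nor ZW9. The 15 largest positive differences also took in AT2G25450 (7.42), AT1G66100 (7.42), AT1G23130 (5.39), AT1G23960 (4.72), AT2G01090 (4.50), AT5G45500 (3.99), AT3G57470 (3.96), AT3G60980 (3.93), AT4G23680 (3.64) and AT4G19500 (3.64), which the gene table gives no symbol, besides the immune receptor RPP4 (3.91) and the kinase CRK22 (3.90). At all 15 wild type lay nearer the BRI1 line. Of the 58 loci at least 4-fold higher, 5 had a mean among the lowest 10% in the arrays labelled 35S::AVP1.

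Among the largest negative differences, ASPGA1 was the exception to that pattern. ASPGA1, an asparaginase that splits asparagine into aspartate and ammonia, had 4.58, 4.86 and 4.68 in the BRI1 line, against 8.50, 8.64 and 8.68 in the arrays labelled 35S::AVP1 and 8.37, 8.54 and 8.72 in wild type. The difference was -3.90 (SE 0.10; limma adjusted p = 7.19e-09), and here it was the BRI1 line that had left the wild type level. The other 14 loci had wild type near the BRI1 line. AOP3, which forms hydroxyalkyl glucosinolates, had 4.63, 4.52 and 4.39 in the BRI1 line, against 10.48, 10.09 and 10.40 in the arrays labelled 35S::AVP1 and 4.28, 4.37 and 4.47 in wild type, a difference of -5.81. HPL1, the hydroperoxide lyase of green leaf volatile synthesis, had 4.92, 4.64 and 4.89 in the BRI1 line, against 9.79, 9.38 and 9.32 in the arrays labelled 35S::AVP1, a difference of -4.68. Both genes were thus high in only the arrays labelled 35S::AVP1. Smaller negative differences were measured for the pectin methylesterase gene ATPMEPCRB (-2.75), the nuclease ENDO5 (-2.70) and the phospholipase PLA2A (-2.62). The actin-depolymerising factor ADF5 (-2.46), the thioredoxin TRX5 (-2.30) and the floral MADS-box factor SEP3 (-2.27) followed. AT5G15360 (-3.61), AT5G35480 (-3.32), AT1G62770 (-3.19), AT5G55570 (-2.99), AT3G48640 (-2.94) and AT4G17470 (-2.82) complete the 15.

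**Figure D3:**
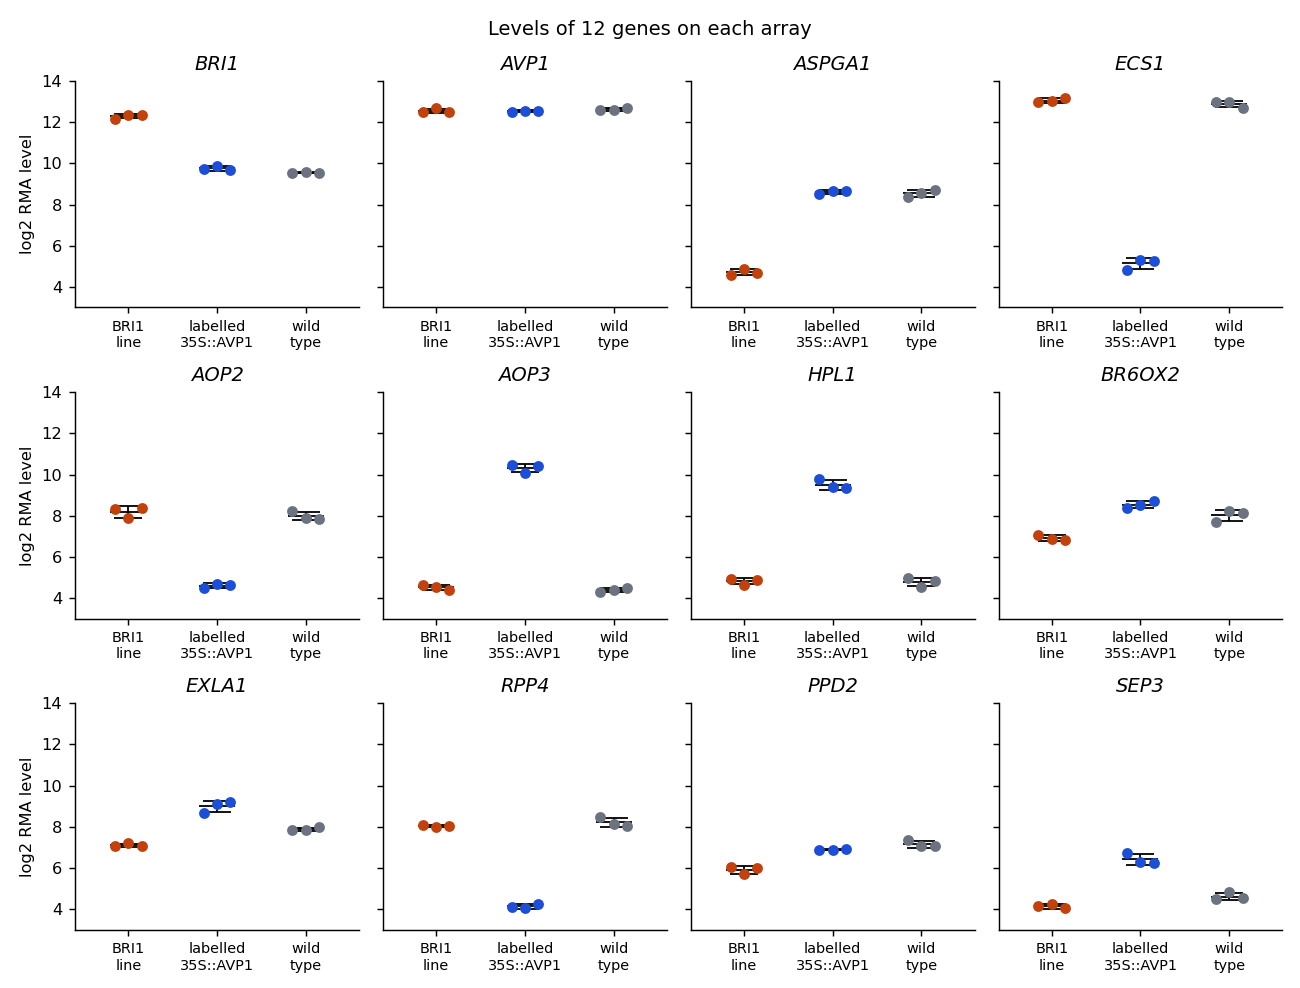
Points are single arrays and black marks the mean ± SD (n = 3) of the log2 level of 12 genes in the BRI1 line, the arrays labelled 35S::AVP1 and wild type. BRI1, ASPGA1 and PPD2 separate the BRI1 line from the other groups, ECS1, AOP2, AOP3, HPL1, RPP4 and SEP3 separate the arrays labelled 35S::AVP1, and BR6OX2 and EXLA1 have wild type between the lines.

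Gene lists covering 443 measured loci were read against the same background. Of those loci 112 were called, 60 higher and 52 lower, or 25.3% against 10.3% of all loci. By list, 38.5% were called for brassinosteroid synthesis, 25% for perception and signalling and 35.7% for brassinosteroid-induced genes. The share was 35.1% for wall loosening, 52.6% for NB-LRR receptors, 47.6% for CRK genes and 40% for salicylic acid defence. It was 50% for glucosinolates, 30% for oxylipins, 31.6% for flavonoids, 37.5% for trichomes, 36.4% for stomata and 26.3% for flowering. The lists were put together with earlier results of these data known, so these shares are not independent evidence.

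**Figure D4:**
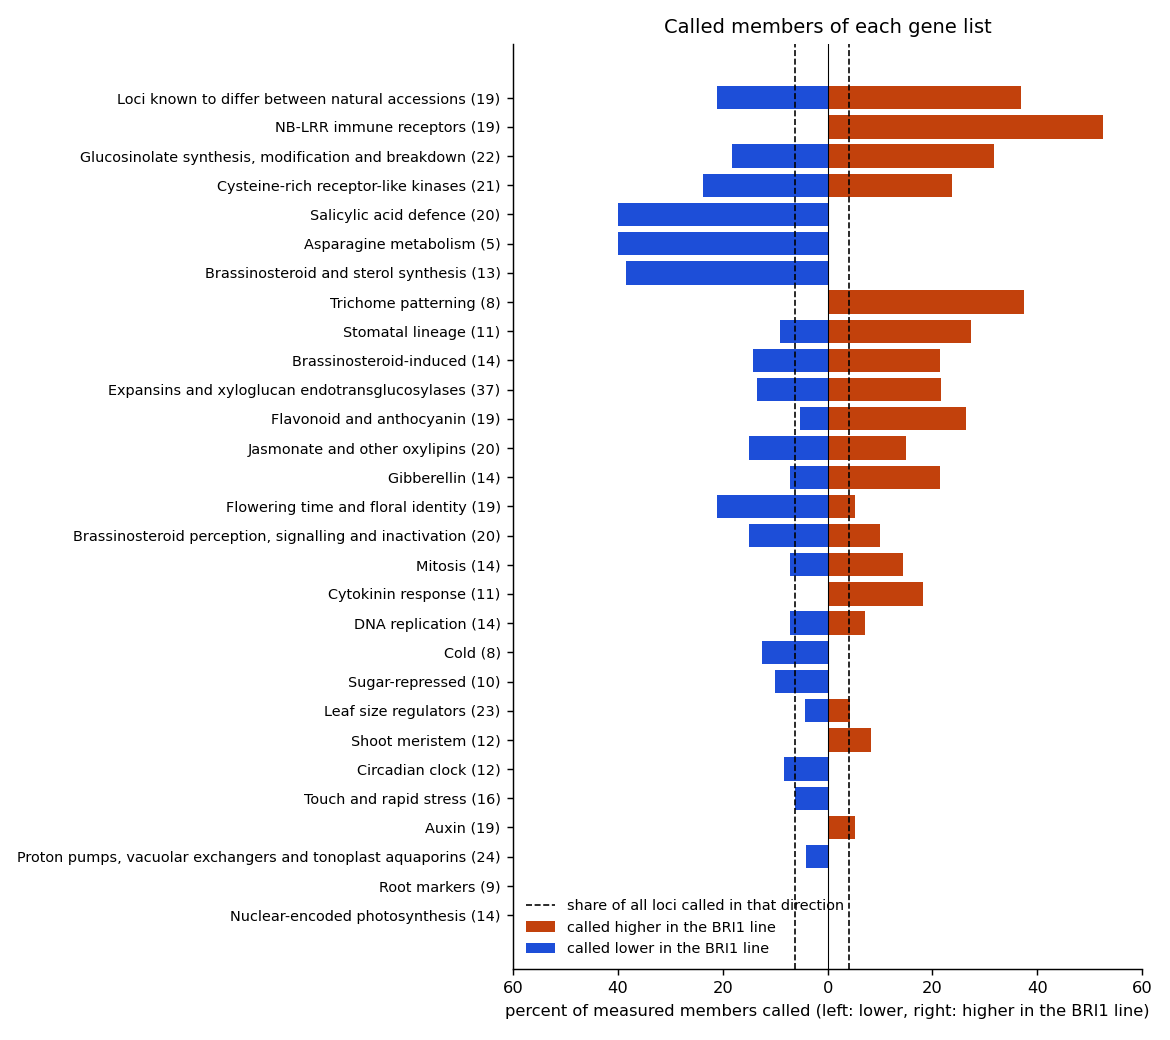
Bars give, for each gene list (measured members in brackets), the percent of members called higher (right, orange) and lower (left, blue) in the BRI1 line. Dashed lines mark the 4.05% and 6.27% of all loci called in each direction; NB-LRR immune receptors reach furthest to the right and salicylic acid defence and asparagine metabolism furthest to the left.

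Genes of brassinosteroid synthesis were lower in the BRI1 line where they differed. Of 13 measured genes of brassinosteroid and sterol synthesis 0 were called higher and 5 lower (38.5% against 10.3% of all loci). Their median was -0.14 against -0.05 over all loci. BR6OX2, which makes the last oxidations to brassinolide, had 7.07, 6.85 and 6.83 in the BRI1 line, against 8.36, 8.51 and 8.70 in the arrays labelled 35S::AVP1 and 7.71, 8.22 and 8.12 in wild type. The lines lay on opposite sides of wild type, and the difference was -1.61 (SE 0.14; limma adjusted p = 4.97e-05). Its paralogue BR6OX1 differed by -0.61, with wild type overlapping the BRI1 line. The cytochrome P450 genes of earlier steps differed less. DWF4, at the step that limits the pathway's rate, had 7.43, 7.31 and 7.17 in the BRI1 line, 7.55, 7.80 and 7.62 in the arrays labelled 35S::AVP1 and 8.00, 8.01 and 7.99 in wild type. CPD had 10.18, 10.05 and 10.03 in the BRI1 line, 10.42, 10.50 and 10.30 in the arrays labelled 35S::AVP1 and 10.70, 10.76 and 10.58 in wild type. For DWF4 (-0.35), CPD (-0.32) and CYP90D1 (-0.25) both lines lay below every wild type array, the BRI1 line further. The calls of these last 3 were not stable. With 1 array left out DWF4 and CPD each lost theirs in 4 of 9 fits and CYP90D1 in 8 (adjusted p up to 0.116, 0.12 and 0.151 over all alternatives), and 2 of the 5 list calls were left without the arrays labelled 35S::AVP1 replicate 2 or without BRI1 line replicate 2 or 3. Quantile normalization left 3 and median centring 2.

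Beyond BRI1 itself, genes of perception, signalling and inactivation moved in both directions. Of 20 measured, 2 were higher and 3 lower (25% against 10.3% of all loci), with a median of -0.05. BAS1, a cytochrome P450 that inactivates brassinosteroids, had 7.36, 7.38 and 7.06 in the BRI1 line, against 6.43, 6.74 and 6.36 in the arrays labelled 35S::AVP1 and 6.64, 6.47 and 6.14 in wild type, a difference of 0.76 (limma adjusted p = 0.00926). BEH2, a relative of BES1 and BZR1, had 6.78, 6.68 and 6.69 in the BRI1 line, against 7.12, 7.06 and 7.06 in the arrays labelled 35S::AVP1, a difference of -0.37. For both genes wild type lay with the arrays labelled 35S::AVP1, and the groups did not overlap. The BES1 partner BIM1 differed by -0.40, with wild type near the BRI1 line. The receptor homologue BRL2 (0.50) and BSK1, a kinase that BRI1 phosphorylates (-0.31), each lost their call in 4 of the 9 fits with 1 array left out (adjusted p up to 0.0784 and 0.0969). The co-receptor BAK1 (-0.12), the inhibitor BKI1 (-0.16) and the kinase BIN2 (0.04) were not called.

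Genes known to be induced by brassinosteroids did not move as a block either. Of 14 measured, 3 were called higher and 2 lower (35.7% against 10.3% of all loci), with a median of 0.16. XTH19, a xyloglucan endotransglucosylase that remodels the wall, had 6.56, 5.70 and 5.84 in the BRI1 line, against 4.97, 4.92 and 4.27 in the arrays labelled 35S::AVP1 and 5.19, 4.67 and 4.06 in wild type, a difference of 1.31 (SE 0.31; limma adjusted p = 0.0233). XTH17 differed by 0.78 with wild type near the BRI1 line, and the growth-promoting bHLH factor BEE1 by 0.73 with wild type near the arrays labelled 35S::AVP1. PRE1, a small bHLH protein of cell elongation, had 7.89, 7.01 and 7.19 in the BRI1 line, against 8.86, 8.57 and 8.01 in the arrays labelled 35S::AVP1, a difference of -1.11. The fatty acid elongase KCS1 differed by -0.42. With 1 array left out, XTH19 and PRE1 lost the call in 4 of 9 fits, BEE1 in 3 and KCS1 in 1, while XTH17 kept it. Higher calls fell to 1 without BRI1 line replicate 1 or 3, and lower calls to 0 without the arrays labelled 35S::AVP1 replicate 2.

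The wider set of wall-loosening genes was also split. Among 37 expansins and xyloglucan endotransglucosylases, 8 were higher and 5 lower (35.1% against 10.3% of all loci), with a median of -0.01. XTH16 had 8.31, 8.32 and 8.30 in the BRI1 line, against 7.74, 7.72 and 7.70 in the arrays labelled 35S::AVP1 and 8.28, 8.32 and 8.31 in wild type, a difference of 0.60. The expansin EXPA1 had 11.88, 11.66 and 11.74 in the BRI1 line, against 11.29, 11.06 and 10.92 in the arrays labelled 35S::AVP1, a difference of 0.67. In the other direction, EXLA1, an expansin-like gene, had 7.07, 7.20 and 7.07 in the BRI1 line, against 8.67, 9.10 and 9.21 in the arrays labelled 35S::AVP1 and 7.84, 7.84 and 7.97 in wild type. Its difference was -1.89 (SE 0.12; limma adjusted p = 6.94e-06), with no array of wild type overlapping either line. XTH24 (-1.31) likewise had wild type in the middle, while XTH6 (-0.78) had it near the BRI1 line. Higher calls in the list fell to 4 without BRI1 line replicate 3 or without the arrays labelled 35S::AVP1 replicate 2.

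Of 23 leaf size regulators 1 was higher and 1 lower, or 8.70%, near the 10.3% of all loci. PPD2, which restrains the division of meristemoid cells in the leaf blade, had 6.04, 5.70 and 6.01 in the BRI1 line, against 6.87, 6.89 and 6.92 in the arrays labelled 35S::AVP1 and 7.35, 7.05 and 7.07 in wild type. The difference was -0.98 (SE 0.11; limma adjusted p = 0.000269), and the BRI1 line stood below both other groups. TCP2, a factor that promotes leaf maturation, had 9.32, 9.58 and 9.44 in the BRI1 line, against 8.80, 8.39 and 8.41 in the arrays labelled 35S::AVP1, a difference of 0.91 with wild type near the BRI1 line. Of 14 mitotic genes 21.4% were called, and of 14 replication genes 14.3%. Among the mitotic genes CDKB2;1 (0.40) and KNOLLE (KN, 0.38) were higher and PLEIADE (PLE, -0.45) lower. Among the replication genes PCNA2 was higher (0.35) and CDC6 lower (-0.40). Among these, CDKB2;1 kept its call with any 1 array left out, whereas KN and PLE lost theirs in 5 of 9 such fits, PCNA2 in 7 and CDC6 in 4 (adjusted p up to 0.128). Of 24 proton pumps, vacuolar exchangers and tonoplast aquaporins, which are the company AVP1 keeps, 1 was called (4.17%). This was CAX3, a vacuolar calcium and proton exchanger, with 6.05 ± 0.30 in the BRI1 line, against 7.95 ± 0.74 in the arrays labelled 35S::AVP1 and 6.42 ± 0.30 in wild type (SD, n = 3 each), a difference of -1.90 (limma adjusted p = 0.00379).

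Other growth hormones were represented by a few genes each. Of 14 gibberellin genes 3 were higher and 1 lower, or 28.6% called against 10.3% of all loci. GA3OX1, which makes the active hormone, had 7.66, 7.84 and 7.69 in the BRI1 line, against 7.00, 7.01 and 6.86 in the arrays labelled 35S::AVP1 and 7.11, 7.11 and 6.66 in wild type, a difference of 0.78. It was the BRI1 line that stood apart there. RGL1, a DELLA repressor of gibberellin response, had 6.89, 7.02 and 6.88 in the BRI1 line, against 7.86, 8.09 and 8.04 in the arrays labelled 35S::AVP1, a difference of -1.07 with wild type near the BRI1 line. The gibberellin receptor GID1B (0.49) and the responsive gene GASA1 (0.93) lost their calls in 4 and 2 of 9 fits with 1 array left out, GASA1 without the arrays labelled 35S::AVP1 replicate 3 and without BRI1 line replicate 1, and in both of those fits 1 gene of the list was called higher. Of 11 cytokinin response genes the response regulators ARR16 (1.51) and ARR4 (0.30) were higher, or 18.2%. ARR4 lost its call in 4 of the 9 fits with 1 array left out. Of 19 auxin genes the repressor IAA4 alone was called (5.26%), at 0.85. It had 9.20, 9.08 and 9.09 in the BRI1 line, against 8.19, 8.20 and 8.45 in the arrays labelled 35S::AVP1.

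Immune receptors of the NB-LRR type, which detect pathogen effectors inside the cell, were higher in the BRI1 line where they differed, and all of those named had wild type near the BRI1 line. Of 19 measured, 10 were called higher and 0 lower (52.6% against 10.3% of all loci), with a median of 0.69. RPP4, a receptor for downy mildew, had 8.11, 7.98 and 8.06 in the BRI1 line, against 4.09, 4.06 and 4.27 in the arrays labelled 35S::AVP1 and 8.48, 8.12 and 8.03 in wild type. The difference was 3.91 (SE 0.11; limma adjusted p = 1.49e-08). SNC1, from the same tandem cluster, differed by 3.37. RPS4 and RRS1 lie side by side and act as a receptor complex against bacteria. RPS4 had 6.92, 7.13 and 6.93 in the BRI1 line, against 3.79, 3.99 and 3.87 in the arrays labelled 35S::AVP1, a difference of 3.11. RRS1 had 6.11, 6.25 and 6.13 in the BRI1 line, against 3.90, 4.21 and 4.41 in the arrays labelled 35S::AVP1, a difference of 1.99. Neither gene's groups overlapped. CSA1 differed by 3.02 and AT4G19500 by 3.64. With 1 array left out 10 or 11 of the list were called higher. How the deposited values divide the signal of similar tandem copies was not tested, and neither was whether probes match the sequence of each line. The same holds for the CRK, AOP and MAM genes.

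Cysteine-rich receptor-like kinases, which sit in the plasma membrane and many of which respond to pathogens, were called in both directions. Of 21 measured, 5 were higher and 5 lower (47.6% against 10.3% of all loci), with a median of -0.06. A tandem cluster on chromosome 4 held both directions. In order of locus number, CRK5 (-0.82) and CRK10 (-0.64) were lower, and CRK18 (1.69), CRK19 (1.79), CRK21 (5.69) and CRK22 (3.90) higher. CRK20, which lies between CRK19 and CRK21, differed by 0.08 and was not called, with every array among the lowest 10% of values. CRK22 had 7.85, 7.71 and 7.71 in the BRI1 line, against 3.85, 3.80 and 3.93 in the arrays labelled 35S::AVP1 and 8.06, 7.76 and 7.54 in wild type. The 4 members of the cluster called higher had wild type beside the BRI1 line. CRK10 (limma adjusted p = 0.0294) had it in the middle, at 0.564, and its call was not followed gene by gene with arrays left out. Elsewhere in the genome CRK41 differed by -1.06. Lower calls fell to 2 without BRI1 line replicate 3 or without the arrays labelled 35S::AVP1 replicate 2, and higher calls were 5 in every such fit.

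**Figure D5:**
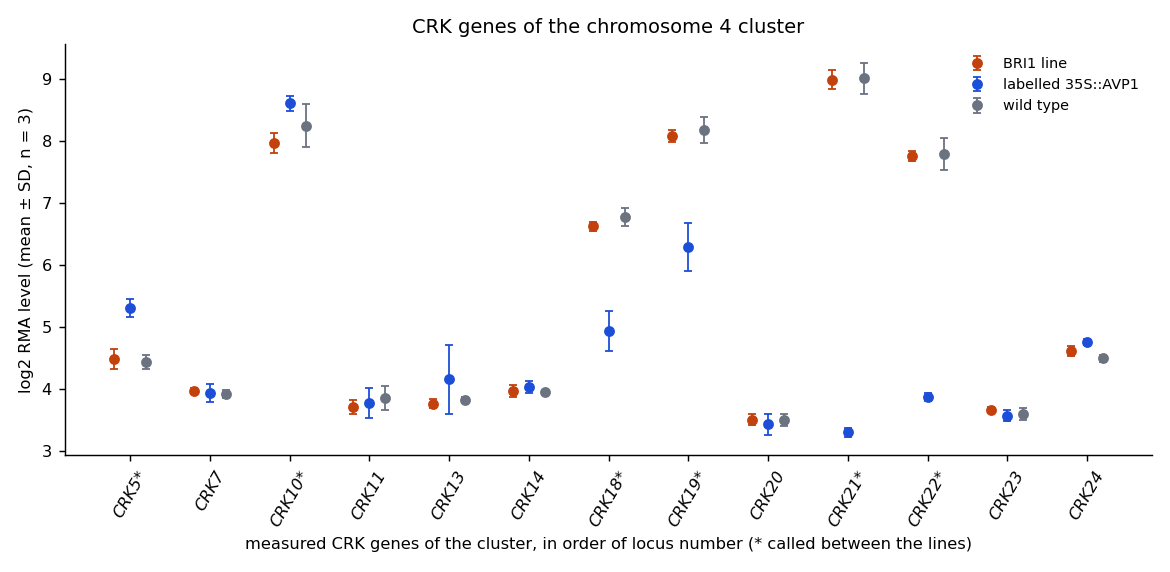
Points are the mean log2 level ± SD (n = 3) of the measured CRK genes of the chromosome 4 cluster, in order of locus number, with genes called between the lines starred. CRK18, CRK19, CRK21 and CRK22 have the BRI1 line and wild type together above the arrays labelled 35S::AVP1, while CRK5 and CRK10 have the BRI1 line below the arrays labelled 35S::AVP1.

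Genes of salicylic acid defence were called in 1 direction, lower in the BRI1 line than in the arrays labelled 35S::AVP1. Of 20 measured, 0 were higher and 8 lower (40% against 10.3% of all loci). The median was -0.39 (-0.05 over all loci), and 19 of the 20 had a negative difference. At 7 of the 8 called genes wild type lay nearer the BRI1 line, and at 1 in the middle. LURP1, a defence gene induced by downy mildew, had 6.11, 7.24 and 7.07 in the BRI1 line, against 8.30, 9.03 and 9.60 in the arrays labelled 35S::AVP1 and 5.96, 6.90 and 5.88 in wild type. The difference was -2.17 (SE 0.39; limma adjusted p = 0.00598). SAG101, which signals with EDS1 below immune receptors, differed by -0.88, and the factor WRKY38 by -0.42. The WRKY38 levels in the BRI1 line, 3.52, 3.60 and 3.55, are among the lowest 10% of values on those arrays. PBS3, an enzyme of salicylic acid synthesis, had 4.33, 4.42 and 4.32 in the BRI1 line, against 5.16, 6.28 and 4.98 in the arrays labelled 35S::AVP1. Its difference of -1.12 became -0.71 without the arrays labelled 35S::AVP1 replicate 2, the highest array. PBS3 lost its call in 3 of the 9 fits with 1 array left out, EDS5 (-0.56), which exports a precursor from the chloroplast, in 6, and NIMIN1 (-0.40), which binds NPR1, in 5. List calls fell to 3 without BRI1 line replicate 1 or 3.

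Glucosinolate genes held some of the greatest differences in both directions. Of 22 measured, 7 were higher and 4 lower (50% against 10.3% of all loci), with a median of 0.24. The greatest difference of the list was that of AT2G25450 (7.42), with wild type near the BRI1 line. Besides AOP3, its tandem neighbour AOP2, which forms alkenyl glucosinolates, had 8.32, 7.87 and 8.39 in the BRI1 line, against 4.47, 4.70 and 4.63 in the arrays labelled 35S::AVP1 and 8.21, 7.89 and 7.84 in wild type. The difference was 3.59 (SE 0.14; limma adjusted p = 1.52e-07), the reverse of that of AOP3. ESM1, which steers glucosinolate breakdown toward isothiocyanates, had 12.26, 12.41 and 12.45 in the BRI1 line, against 10.58, 10.60 and 10.96 in the arrays labelled 35S::AVP1, a difference of 1.66. MAM3, a chain-elongating methylthioalkylmalate synthase, differed by -1.46, and CYP83B1, of indole glucosinolate synthesis, by 0.67. At AOP2, AOP3, ESM1 and MAM3 wild type lay near the BRI1 line, and at CYP83B1 in the middle. Between 5 and 9 genes were called higher and between 2 and 4 lower with 1 array left out, the fewest lower ones without the arrays labelled 35S::AVP1 replicate 1 or 3.

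Of 20 measured oxylipin genes 3 were higher and 3 lower (30% against 10.3% of all loci), with a median of -0.06. AOS, which commits lipid hydroperoxides to jasmonate, had 10.03, 9.86 and 10.21 in the BRI1 line, against 7.71, 8.05 and 8.02 in the arrays labelled 35S::AVP1 and 9.89 ± 0.18 (SD, n = 3) in wild type, a difference of 2.11 (SE 0.13; limma adjusted p = 3.58e-06). OPR3, later in the same branch, had 8.80, 8.63 and 9.17 in the BRI1 line, against 7.17, 7.52 and 7.59 in the arrays labelled 35S::AVP1, a difference of 1.44. HPL1, which draws on the same hydroperoxides, was lower by the values above. The lipoxygenases split, LOX3 at 0.46 and LOX4 at -0.62, and the jasmonate-responsive CORI3 differed by -1.18. LOX3 lost its call in 5 of the 9 fits with 1 array left out (adjusted p up to 0.0919), and the others named here kept theirs.

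Of the flavonoid and anthocyanin genes that differed all but CHI were higher in the BRI1 line. Of 19 measured, 5 were higher and 1 lower (31.6% against 10.3% of all loci), with a median of 0.40. PAP1, a MYB activator of the pathway, had 5.22, 4.79 and 5.53 in the BRI1 line, against 4.41, 4.01 and 4.16 in the arrays labelled 35S::AVP1 and 4.41, 4.30 and 4.06 in wild type, a difference of 0.98 (SE 0.18; limma adjusted p = 0.00593). The anthocyanin glycosyltransferase UF3GT (0.68) also had wild type near the arrays labelled 35S::AVP1. The malonyltransferase 5MAT (0.89), the flavonol glycosyltransferase UGT78D1 (0.56) and the flavonol synthase FLS1 (0.45) had it in the middle or near the BRI1 line. CHI, chalcone isomerase, had 7.90, 7.74 and 7.93 in the BRI1 line, against 8.65, 8.40 and 8.62 in the arrays labelled 35S::AVP1, a difference of -0.70. PAP1 and CHI kept their calls with any 1 array left out, while the others lost theirs in 2 to 5 of 9 such fits. Higher calls fell to 1, PAP1, without BRI1 line replicate 3 or without the arrays labelled 35S::AVP1 replicate 2.

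Epidermal patterning genes that differed were higher in the BRI1 line with wild type near it, FAMA excepted. Of 8 trichome genes 3 were higher and 0 lower (37.5% called, against 10.3% of all loci). GL2, a homeodomain factor of trichome growth, had 7.07, 7.35 and 7.04 in the BRI1 line, against 6.41, 6.20 and 6.03 in the arrays labelled 35S::AVP1 and 7.28, 7.36 and 7.59 in wild type, a difference of 0.94. The MYB factor GL1 differed by 0.56 and TTG2 by 0.51. Of 11 genes of the stomatal lineage 3 were higher and 1 lower (36.4% called, against 10.3% of all loci). ICE1, a bHLH partner in that lineage and in cold response, had 8.86, 8.74 and 8.76 in the BRI1 line, against 7.26, 6.44 and 7.10 in the arrays labelled 35S::AVP1 and 8.78, 8.77 and 8.56 in wild type, a difference of 1.85 (SE 0.18; limma adjusted p = 9.44e-05). The receptor TMM differed by 0.48 (limma adjusted p = 0.0114). SPCH, which starts the lineage (0.43), and FAMA, which ends it in guard cells (-0.35), were near the threshold. With 1 array left out TTG2, SPCH and FAMA each lost their call in 5 of 9 fits, and TMM in 1, that without BRI1 line replicate 3, where 1 stomatal gene was called higher.

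Flowering genes included 1 higher and 4 lower of 19 (26.3% called, against 10.3% of all loci). SMZ, a repressor of flowering, had 6.56, 6.68 and 6.76 in the BRI1 line, against 5.71, 5.42 and 5.52 in the arrays labelled 35S::AVP1 and 5.85, 5.60 and 5.61 in wild type, a difference of 1.12 (SE 0.10; limma adjusted p = 6.07e-05). Its relative SNZ went the other way at -0.72, but lost its call in 5 of 9 fits with 1 array left out. SEP3 had 4.13, 4.26 and 4.04 in the BRI1 line, against 6.74, 6.27 and 6.24 in the arrays labelled 35S::AVP1 and 4.49, 4.82 and 4.53 in wild type. The floral organ gene AG differed by -0.57 and the repressor FLC by -0.68. AG had 3.32, 3.46 and 3.41 in the BRI1 line and 3.34, 3.36 and 3.48 in wild type. These are among the lowest 10% of values on those arrays. Over AP1, AG, SEP3 and LFY the array means lay between 3.76 and 3.89 in the BRI1 line, 4.46 to 4.71 in the arrays labelled 35S::AVP1 and 3.91 to 3.97 in wild type, a gap that SEP3 chiefly made. AP1 (-0.01) and LFY (-0.03) were not called.

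Of 14 nuclear-encoded photosynthesis genes 0 were called by limma, and 0 at an unadjusted p under 0.05, while of 9 root markers 0 were called and 2 passed that unadjusted limit. PHO1, which loads phosphate into the xylem, came nearest among the latter, at -0.55 (limma adjusted p = 0.0937). Single genes were lower among 16 of touch and rapid stress (SIB1, -1.27), 12 of the clock (PRR7, -0.36), 8 of cold (CBF3, -0.90) and 10 repressed by sugar (SEN1, -0.85). Of 12 shoot meristem genes the receptor CLV1 was higher, at 0.23. The shares called in these 5 lists, 6.25% to 12.5%, were near the 10.3% of all loci. Of 5 asparagine genes the synthetase ASN2 was lower (-0.43) besides ASPGA1, or 40% of a short list. CBF3 and ASPGA1 kept their calls with any 1 array left out, while SIB1 lost its call in 4 of 9 such fits, SEN1 and ASN2 in 5, PRR7 in 6 and CLV1 in 8 (adjusted p up to 0.135). Natural accessions of the species are known to differ at some of the genes above, ECS1, AOP2, AOP3 and MAM genes among them. Of 19 such loci measured, 7 were higher and 4 lower, 57.9% against 10.3% of all loci. This list too was put together with earlier results of these data known, so its share is not independent evidence.

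Among loci with wild type in the middle, the greatest positive differences were AT3G44970 (1.92), MSRB5, a methionine sulfoxide reductase, AT4G29700 (1.45), AT5G26220 (1.39), AT4G13800 (1.24), BETA-VPE, a vacuolar processing protease (1.24), AT4G11290 (1.11) and AT3G28220 (1.03). MSRB5 had 9.79, 9.16 and 10.12 in the BRI1 line, against 8.00, 8.40 and 8.16 in the arrays labelled 35S::AVP1 and 9.35, 9.06 and 8.55 in wild type. The wild type arrays reached into the range of the BRI1 line and stayed above the arrays labelled 35S::AVP1. The greatest negative ones, beside EXLA1, BR6OX2, XTH24 and SIB1, were AT5G19240 (-2.05), AT1G31690 (-1.45), AT3G46110 (-1.17) and SOT12, a sulfotransferase that acts on salicylic acid and brassinosteroids (-1.16). AT5G19240 had 6.83, 6.36 and 6.78 in the BRI1 line, 8.56, 9.16 and 8.39 in the arrays labelled 35S::AVP1 and 8.91, 6.95 and 6.10 in wild type, which spanned both lines. Of the loci named here, AT3G44970, AT5G26220, AT4G13800, EXLA1, BR6OX2, XTH24 and AT3G46110 had the lines on opposite sides of every wild type array, and the others did not. AT5G19240 lost its call in 7 of the 9 fits with 1 array left out, AT3G28220 in 5, SOT12 in 4 and AT4G29700 in 2, those without BRI1 line replicate 3 and without the arrays labelled 35S::AVP1 replicate 2.

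Called loci were spread over the genome. They made up 10.5% of measured loci on chromosome 1, 8.83% on chromosome 2, 9.47% on chromosome 3, 11.6% on chromosome 4 and 10.9% on chromosome 5. The chloroplast had 13 of 73 called (17.8%) and the mitochondrion 5 of 31 (16.1%). In 412 windows of 50 consecutive measured loci the median was 10% called. The highest was 26%, 13 of 50 loci, in a window on chromosome 3 that runs by locus number from AT3G44350 to AT3G45010. No test was made on these shares.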

How the data were processed

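RNA from the vegetative part of seedlings was measured on 9 ATH1 arrays, 3 per genotype. The deposited values are log2 levels that the authors made with RMA, per the submitters' processing notes. The version of RMA, how probes were assigned to loci and which arrays were normalized together are not stated in the sources. Arrays give no counts, so their number limits the precision, and the table holds no detection calls.

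The deposited values were used without further scaling. In R 4.3.3, limma 3.58.1 (functions lmFit and eBayes) fitted a mean for each genotype at 20777 loci over all 9 arrays, with 6 residual and 3.94 prior degrees of freedom; wild type enters only the estimate of spread. Benjamini-Hochberg adjustment covered all loci. Position of wild type, lists, chromosomes and windows were described without tests.

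The rule for named genes took BRI1 and AVP1, the 15 largest differences each way among called loci whose groups did not overlap, the 8 largest each way with wild type in the middle, and up to 6 called members with the lowest p of each of 29 lists (up to 2 where none was called). BAK1, BKI1, BIN2 and CRK20 were chosen after their values were seen. CRK10 and the floral markers AP1 and LFY were also named outside the rule. Members and lists were chosen with earlier results of these data known. Symbols come from a TAIR10.1 gene table, which held 20508 of the loci and not the other 269.

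The fit was tested on simulated data for this comparison over 20777 loci: of 100 loci changed by 0.5 it recovered 58.0%, of 100 changed by 1 it recovered 97.0%, and it made 8 false calls. Alternatives were the 6 arrays alone, quantile normalization, median centring, removal of the dimmest 25% of loci, a trended robust prior, a replicate block, fold limits, another middle band and window, and each array left out in turn.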

Additional observations from a re-analysis of the deposited data

How the results depend on the processing

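The number of arrays limits these results: with 1 array left out, calls between the lines ran from 1298 to 2419, higher ones from 577 to 918, lower ones from 721 to 1501 and those in the gene lists from 71 to 121. Requiring at least 2-fold left 323 calls (198 higher, 125 lower, 41 in the lists) and at least 4-fold 81 (58 higher, 23 lower, 17 in the lists). Median centring left 825 lower calls of 1894 in all. The 6 arrays alone gave 2241 calls, quantile normalization 1994, removal of dim loci 2139 and a trended robust prior 2178. The BRI1 difference was 2.49 to 2.59 and passed the threshold under all 15 alternatives. The AVP1 difference, never past it, ran from -0.0366 to 0.0488 with 1 array left out and changed sign without 35S::AVP1 replicate 1 (-0.0039) and without BRI1 replicate 2 (-0.0366). With the middle band at 0.33 to 0.67, 243 loci had wild type in the middle. Windows of 100 loci reached 22.0% called. Of 124 named genes called, 86 kept the call under every alternative that tested them. The other 38 lost it with some array left out, 20 of them also under another setting. The cause of these losses was not tested. BR6OX1, WRKY38, CRK41 and AG, which kept the call, and NIMIN1, which lost it, had 14 alternatives rather than 15. Removal of dim loci took these genes out, so their calls were not tested under that setting.

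The replicate numbers were not taken as pairs, because the deviations of same-numbered arrays of both lines correlated at 0.35, 0.06 and 0.19, not all over 0.1. Those of different-numbered arrays correlated at -0.31 to 0.17. Whether same-numbered arrays shared a batch was not tested. With replicate number as a block 2382 loci were called (928 higher), including 2009 (93.7%) of those above, and BRI1 differed by 2.53 (adjusted p = 1.68e-07).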
